A study of Mus musculus with 18 samples.

Results

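The genes of 9 receptors, grouped as inhibitory checkpoint receptors, were followed through the type 1 lymphocytes of the liver and its metastases: Pdcd1, Ctla4, Lag3, Havcr2, Tigit, Cd96, Cd200r1, Cd200r2 and Btla. They were taken by name from among 54309 genes, and 8 of the 9 were among the 13594 genes that passed the filter on low counts. Btla did not pass, and its counts are given without a test. All lymphocytes came from female C57BL/6J mice, 8 to 10 weeks old, whose spleens had been injected with MC38, a line of murine colon adenocarcinoma, 20 days before the livers were taken. From metastasis-free liver (MFL) of these mice, the sort took NK cells, which carry CD49b and lack CD49a, and ILC1, which carry CD49a and lack CD49b. From liver metastasis (LM) it took the NK cells without CD49a, here LM CD49a- NK cells, and those with both integrins, here LM CD49a+ NK cells, whose sample titles call them ILC1. Each population had 3 libraries, each from a pool of 6 to 8 samples, and no library came from a mouse without metastases. LM was digested with Liberase, whereas MFL was smashed and filtered, so site and dissociation cannot be told apart.

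Inhibitory receptors set the point at which a lymphocyte answers a target cell. They bind ligands on the other cell and, mostly through tyrosine motifs in their tails, bring phosphatases and adaptor proteins to the membrane that dampen activating signals. On NK cells and ILC1 the nectin receptors TIGIT and CD96 compete with the activating receptor DNAM-1, encoded by Cd226, for the poliovirus receptor. CD200R1 binds CD200 on neighboring cells and is best known from myeloid cells, while PD-1, CTLA-4, LAG-3 and TIM-3 are best known from chronically stimulated T cells.

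The labels were checked against genes of the sort. Itga1, which encodes CD49a, had a mean of 663 CPM (read counts scaled for library size, after TMM) in MFL ILC1. Its means were 134 CPM in the LM CD49a+ population, 11.4 in the LM CD49a- one and 11.5 in MFL NK cells. Eomes, the transcription factor of conventional NK cells, was between 500 and 1147 CPM in the 9 NK libraries and between 7.58 and 40.2 CPM in MFL ILC1. Total counts lay between 8795721 and 14386834 per library. Genes with at least 10 counts numbered 9608 to 12601 in the LM libraries and 11651 to 13218 in the MFL libraries. This did not follow depth alone: MFL ILC1 replicate 3 had 12503 such genes at 10078965 counts, and LM CD49a+ replicate 1 had 10719 at 10661557. A member could be at 0 in one LM library and well above the floor in another of the same population. A level of 0 in an LM library is therefore read here as not detected in that library. Here and below, in bulk libraries of sorted cells, fewer cells that express a gene and less RNA per cell cannot be told apart.

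Of the 9 genes, 5 lie within 2.39 Mb of chromosome 16: Tigit, Cd200r1, Cd200r2, Btla and Cd96. Because Cd200r2 was high in MFL ILC1 and Tigit was not, the 250 bases before the canonical transcription start of both genes are shown, read from GRCm39 with GENCODE vM39 starts. They lie at chr16:44687210-44687459 on the plus strand for Cd200r2 and at chr16:43484510-43484759 on the minus strand for Tigit. Capitals mark matches, on either strand, to the RUNX motif TGTGGT, the core T-box motif GGTGTG and the AP-1 motif TGANTCA. In the windows below no match overlapped another.
Cd200r2: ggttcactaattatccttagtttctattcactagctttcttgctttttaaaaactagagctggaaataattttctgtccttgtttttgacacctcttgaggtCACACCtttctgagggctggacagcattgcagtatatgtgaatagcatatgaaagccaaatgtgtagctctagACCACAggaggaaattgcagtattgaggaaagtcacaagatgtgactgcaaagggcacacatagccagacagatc
Tigit: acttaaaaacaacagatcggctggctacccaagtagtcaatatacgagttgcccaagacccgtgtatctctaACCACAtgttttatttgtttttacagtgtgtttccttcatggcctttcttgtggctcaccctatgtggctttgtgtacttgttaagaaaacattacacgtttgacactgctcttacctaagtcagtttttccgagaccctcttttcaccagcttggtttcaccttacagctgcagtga
The RUNX letters were present in both windows, at 75 bases before the start of Cd200r2 and 178 before that of Tigit, and the T-box letters at 148 bases before the start of Cd200r2. Among the windows of tested genes, 12.1% held the RUNX letters, against 4 of the 9 members. The T-box and AP-1 motifs were each found in 1 of the 9 members, against 15.4% (T-box) and 4.32% (AP-1) of tested genes. The AhR core motif GCGTG was searched as well and was found in 1 of the 9 members, Cd200r1, against 41.9% of tested genes. These matches are a description of letters.

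**Figure D1:**
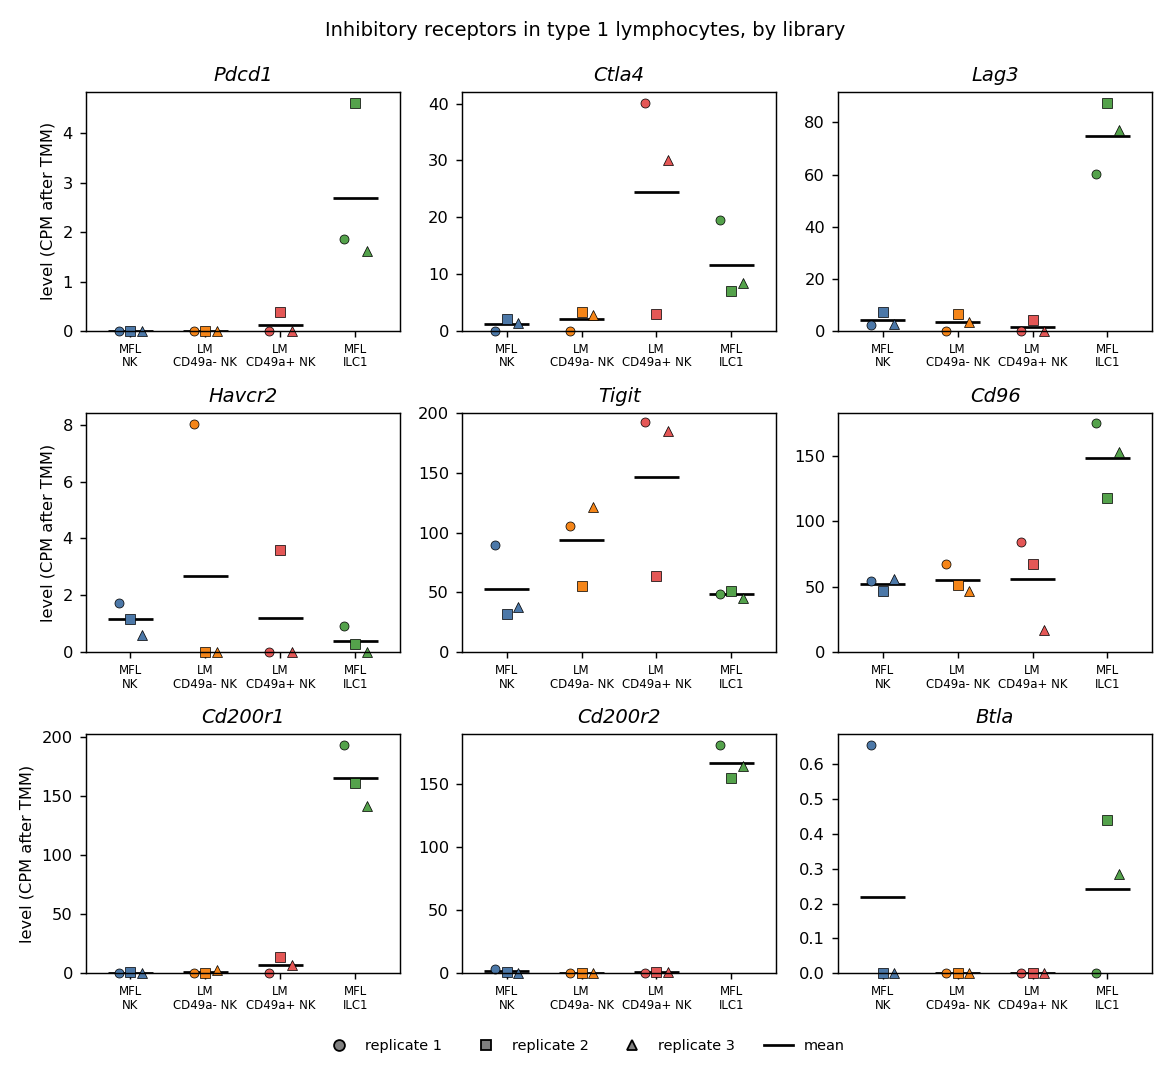
Level of each of the 9 genes (CPM after TMM, vertical axis, linear and different in each panel) in the 3 libraries of each population, with the mean as a line. Cd200r1, Cd200r2, Lag3 and Cd96 were highest in the 3 MFL ILC1 libraries, and Tigit was highest in 2 of the 3 LM CD49a+ NK libraries (192 and 185 CPM).

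Among the lymphocytes, each difference of a member that passed the test involved MFL ILC1. Compared with MFL NK cells, 3 of the 8 tested members were higher in MFL ILC1 (Cd96, Cd200r1 and Cd200r2) and 0 were lower, at an adjusted p under 0.1, the threshold the study used for these libraries. Over all tested genes 3.06% were called in that comparison. Compared with MFL ILC1, LM CD49a+ NK cells had 1 member higher (Tigit) and 3 lower (Lag3, Cd200r1 and Cd200r2), against 3.58% of all genes, and LM CD49a- NK cells had 3 lower (Cd96, Cd200r1 and Cd200r2), against 4.42%. With these few members the counts describe the genes named and no property of the group.

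Between the NK populations edgeR called 0 of the 8 members in each comparison. For LM CD49a+ against LM CD49a- NK cells, where 0.14% of all genes were called, 3 members had an unadjusted p under 0.05 (11.6% of all genes), DESeq2 called 1, Cd200r2 (3.99% of genes), and limma-voom 0. For LM CD49a+ against MFL NK cells, with 0.647% of genes called, 3 members had an unadjusted p under 0.05 (9.74%), DESeq2 called 2, Ctla4 and Tigit (2.64%), and limma-voom 1, Tigit (2.26%). For LM CD49a- against MFL NK cells, with 0.0736% called, 1 member had an unadjusted p under 0.05 (6.72%), DESeq2 called 1, Cd200r2 (1.15%), and limma-voom 0 (0.765%). The interaction of CD49a and site asks whether the CD49a+ and CD49a- populations differed in LM as they did in MFL. MFL ILC1 and MFL NK cells also differed in CD49b and in Eomes (means of 20.3 and 668 CPM). Both LM populations carried CD49b, with Eomes at 687 (CD49a+) and 945 CPM (CD49a-), so the contrast is not one of CD49a alone. There edgeR called 0 members against 1.03% of all genes, 3 had an unadjusted p under 0.05 (8.7%), and DESeq2 (2.56%) and limma-voom (1.32%) called 0.

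Per length, the mix of receptors differed between the populations. The summed level of the 9 genes was 78.3 ± 31.1 CPM per kb of exon in MFL NK cells (SD, n = 3), 118 ± 32.5 in LM CD49a- NK cells, 180 ± 71.6 in LM CD49a+ NK cells and 299 ± 21.8 in MFL ILC1. The 3 MFL ILC1 libraries, at 284 to 324 CPM per kb, lay above the 9 NK libraries, whose highest was 239. This separation rests on Cd200r2, which is in the list only by family and gave 103, 88.5 and 93.8 CPM per kb in MFL ILC1. Without it the MFL ILC1 sums fall below that highest NK library. Tigit made up 61.7% of the sum in MFL NK cells, 74.5% in LM CD49a- and 75.1% in LM CD49a+ NK cells, and Cd96 33.1%, 22.5% and 16.9%. In MFL ILC1 the sum was spread over Cd200r2 (31.8%), Cd96 (22.6%), Cd200r1 (16.5%), Tigit (15.5%) and Lag3 (11.4%).

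**Figure D2:**
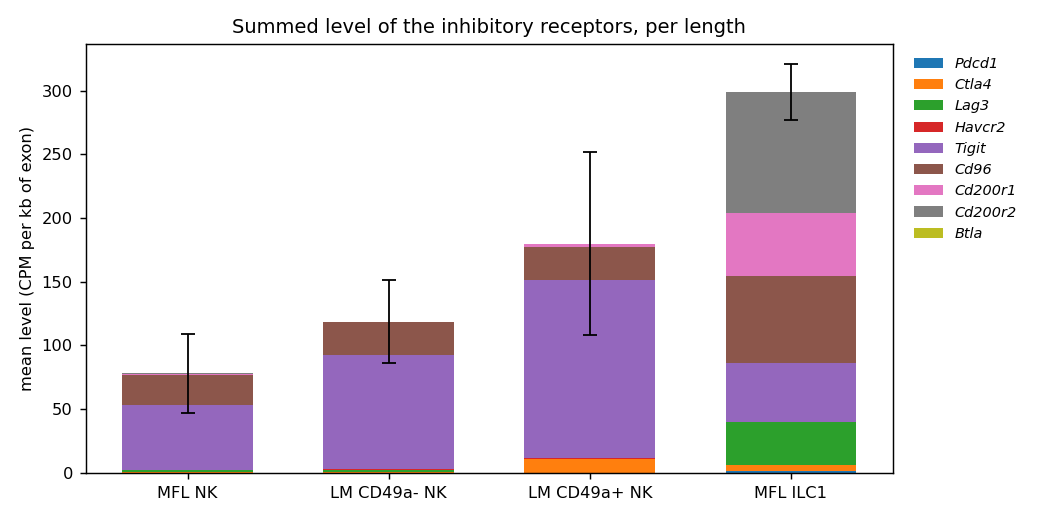
Mean level of the 9 genes per kb of exon, stacked for each population, with the SD of the sum over 3 libraries as the bar. Tigit fills most of the column in the 3 NK populations, and the MFL ILC1 column, at 299 CPM per kb, is the tallest and divided among 5 genes.

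Tigit and Cd96, which encode the inhibitory nectin receptors, had their highest means in different populations. Tigit stood at 89.6, 32.0 and 38.0 CPM in the MFL NK libraries, at 105, 55.8 and 122 in LM CD49a- NK cells, at 192, 63.6 and 185 in LM CD49a+ NK cells and at 48.9, 51.5 and 45.1 in MFL ILC1. In both LM populations replicate 2 was the lowest, and the LM and MFL NK libraries overlapped. The mean of LM CD49a+ NK cells was 3.03-fold that of MFL ILC1, with a log2 fold change of 1.60 ± 0.45 (SE) and an adjusted p of 0.0755 by edgeR's quasi-likelihood test. This call was lost without any one MFL ILC1 library or without LM CD49a+ replicate 1 or 3, with adjusted p from 0.203 to 0.27. Against MFL NK cells LM CD49a+ NK cells differed in Tigit by a log2 fold change of 1.47 ± 0.44 (adjusted p = 0.258). It passed with DESeq2 (0.0784), limma-voom (0.0146) and no filter (0.00573) and without LM CD49a+ replicate 2 (0.0665). The difference from LM CD49a- NK cells was 0.64 ± 0.44 (adjusted p = 0.606, 95% interval -0.21 to 1.49). MFL ILC1 and MFL NK cells differed by -0.13 ± 0.44 (adjusted p = 1, 95% interval -0.99 to 0.72), and this estimate changed sign in 1 of 12 fits that left out a library.

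The 3 NK populations had similar mean levels of Cd96, which was at 54.7, 46.4 and 55.5 CPM in MFL NK cells, 67.3, 51.5 and 46.9 in LM CD49a- and 84.2, 67.1 and 16.9 in LM CD49a+ NK cells, where replicate 3 was the lowest of the 9. In MFL ILC1 it stood at 175, 118 and 153 CPM, above each of the 9 NK libraries. Its mean in MFL ILC1 was 2.84-fold that of MFL NK cells (1.51 ± 0.42 on the log2 scale, adjusted p = 0.0839). LM CD49a- NK cells had 2.69-fold less than MFL ILC1 (adjusted p = 0.0879), and LM CD49a+ NK cells 2.64-fold less without passing the test (adjusted p = 0.11, and under 0.1 in 6 of 19 alternative fits, among them DESeq2 at 0.0469, limma-voom at 0.0514, no filter at 0.00952 and the fit without LM CD49a+ replicate 1 at 0.0654). Within LM the difference of CD49a+ from CD49a- NK cells was 0.02 ± 0.42 on the log2 scale (adjusted p = 1, 95% interval -0.79 to 0.84). Both calls sat close to the threshold. The first was lost without any one MFL NK or MFL ILC1 library, LM CD49a+ replicate 2 or LM CD49a- replicate 3 (adjusted p 0.105 to 0.329), and the second was lost in 10 of 12 fits that left out a library (0.104 to 0.27).

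Their activating partner moved as well. Cd226 was at 339, 276 and 267 CPM in MFL ILC1 and between 20.3 and 90.9 CPM in the 9 NK libraries, and the log2 difference between MFL ILC1 and MFL NK cells was 3.05 ± 0.38 (adjusted p = 9.81e-05). The interaction of CD49a and site passed for Cd226 (-2.36 ± 0.51, adjusted p = 0.0402), since LM CD49a+ and CD49a- NK cells, at means of 79.5 and 49.4 CPM, differed less than MFL ILC1 and NK cells. Per kb of exon, the ratio of Tigit to Cd226 was 0.685, 0.886 and 0.802 in the MFL ILC1 libraries and between 3.18 and 28.5 in the NK libraries, with no overlap. The ratio of Cd96 to Cd226 was 0.971 to 1.30 in MFL ILC1 and 0.425 to 5.26 in NK cells, with overlap. Among the nectin ligands, Pvr was at 5.43 to 23.5 CPM in the 12 libraries, while Nectin1, Nectin2 and Nectin3 reached at most 4.38, 0.805 and 0.221 CPM.

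**Figure D3:**
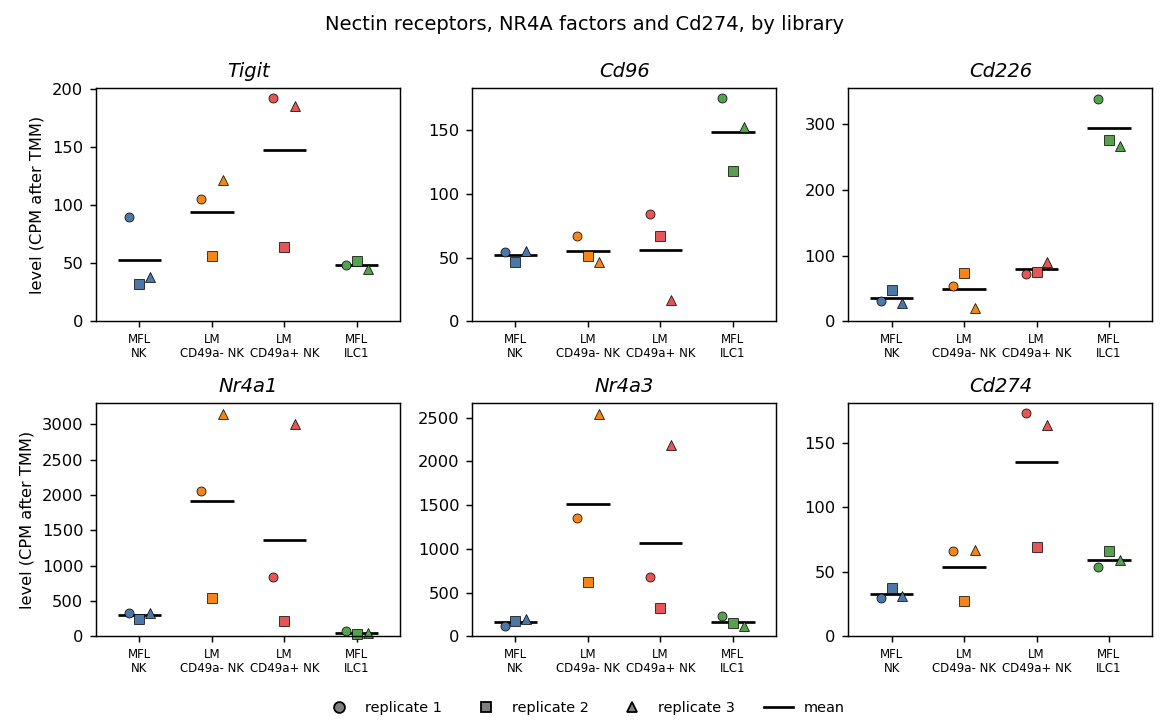
Level (CPM after TMM, vertical axis) of Tigit, Cd96 and Cd226, of the transcription factors Nr4a1 and Nr4a3 and of Cd274, in the 3 libraries of each population, with the mean as a line. Cd96 and Cd226 are highest in MFL ILC1, and in both LM populations replicate 2 (squares) has the lowest Tigit, Nr4a1, Nr4a3 and Cd274.

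Levels of activation-induced genes were set beside those of Tigit across the LM libraries. Nr4a1, which encodes an immediate-early factor downstream of receptor signaling that also responds to tissue dissociation, was at 2049, 542 and 3145 CPM in LM CD49a- NK cells and at 845, 222 and 3007 in LM CD49a+ NK cells, against 250 to 326 in MFL NK cells and 38.0 to 79.2 in MFL ILC1. In both LM populations the library lowest in Tigit, replicate 2, was also lowest in Nr4a1, Nr4a2 and Nr4a3. LM CD49a+ NK cells had a higher mean of Tigit (147 against 94.4 CPM) and a lower mean of Nr4a1 (1358 against 1912) than LM CD49a- NK cells. Neither difference was called, and the libraries of the populations overlapped for both genes, so no direction is read from these means. Cd274, which encodes the PD-1 ligand PD-L1, was at 173, 68.9 and 164 CPM in LM CD49a+ NK cells and at 29.4 to 37.3 in MFL NK cells, and was the 1 called gene of the ligand list in that comparison (log2 fold change 2.05 ± 0.40, adjusted p = 0.0262). Site and dissociation cannot be told apart in these values, and the part of replicate 2 was not tested.

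Both CD200 receptor genes were higher in MFL ILC1 than in each NK population. Cd200r1 stood at 193, 161 and 142 CPM in MFL ILC1, at 0, 0.884 and 0.367 in MFL NK cells, at 0.111, 0 and 2.68 in LM CD49a- and at 0, 13.7 and 7.07 in LM CD49a+ NK cells. The log2 fold change of MFL ILC1 over MFL NK cells was 8.57 ± 1.52 (adjusted p = 0.00281), and LM CD49a- NK cells fell by 7.37 ± 1.43 against MFL ILC1 on the log2 scale (adjusted p = 0.00542). These calls held in 19 of 19 alternative fits. In LM CD49a+ NK cells Cd200r1 was 23.8-fold lower than in MFL ILC1 (adjusted p = 0.065), a call lost without any one MFL ILC1 library or LM CD49a+ replicate 3 (0.161 to 0.241) and with DESeq2 (0.188). The reads in LM CD49a+ replicates 2 and 3, 175 and 71 counts, put their mean above those of the other NK cells, but replicate 1 had 0 and the difference from LM CD49a- NK cells did not pass (log2 fold change 2.79 ± 1.21, adjusted p = 0.407).

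Cd200r2, which encodes a relative of CD200R1 that is grouped with the inhibitory receptors here by family, was at 181, 155 and 165 CPM in MFL ILC1. It was at 3.35, 0.884 and 0.514 CPM in MFL NK cells, at 0 in each of the 3 LM CD49a- libraries and at 0, 1.25 and 1.20 in LM CD49a+ NK cells, so that the MFL ILC1 libraries lay far above the rest. The log2 difference between MFL ILC1 and MFL NK cells was 6.72 ± 0.91 (adjusted p = 0.000376) and, against MFL ILC1, the LM CD49a+ population fell by 7.64 ± 0.96 on the log2 scale (adjusted p = 0.000272). Against LM CD49a- NK cells the level in MFL ILC1 was at least 555-fold higher, with 3 counts per library as the floor (adjusted p = 2.61e-05). Each of the 3 calls held in 19 of 19 alternative fits. The genes of this family share part of their sequence. Of the 31-base words in Cd200r2 transcripts, 12.7% occur in other genes, with Cd200r4 sharing 6.78% and Cd200r1 3.59%. Of those in Cd200r1 transcripts, 10% occur in other genes, with Gm60988 sharing 5.83%, Cd200r4 2.51% and Cd200r2 1.81%. A small part of the reads of the family could be split among its genes. Words were matched on either strand, Gm60988 overlaps exons of Cd200r1 on the opposite strand, and the library kit keeps strand. Cd200r4 itself was at 55.0 to 69.2 CPM in MFL ILC1 and 26.5 to 31.3 in MFL NK cells (adjusted p = 0.603). Cd200, the gene of the CD200R1 ligand, had 0 counts in the 12 libraries.

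**Figure D4:**
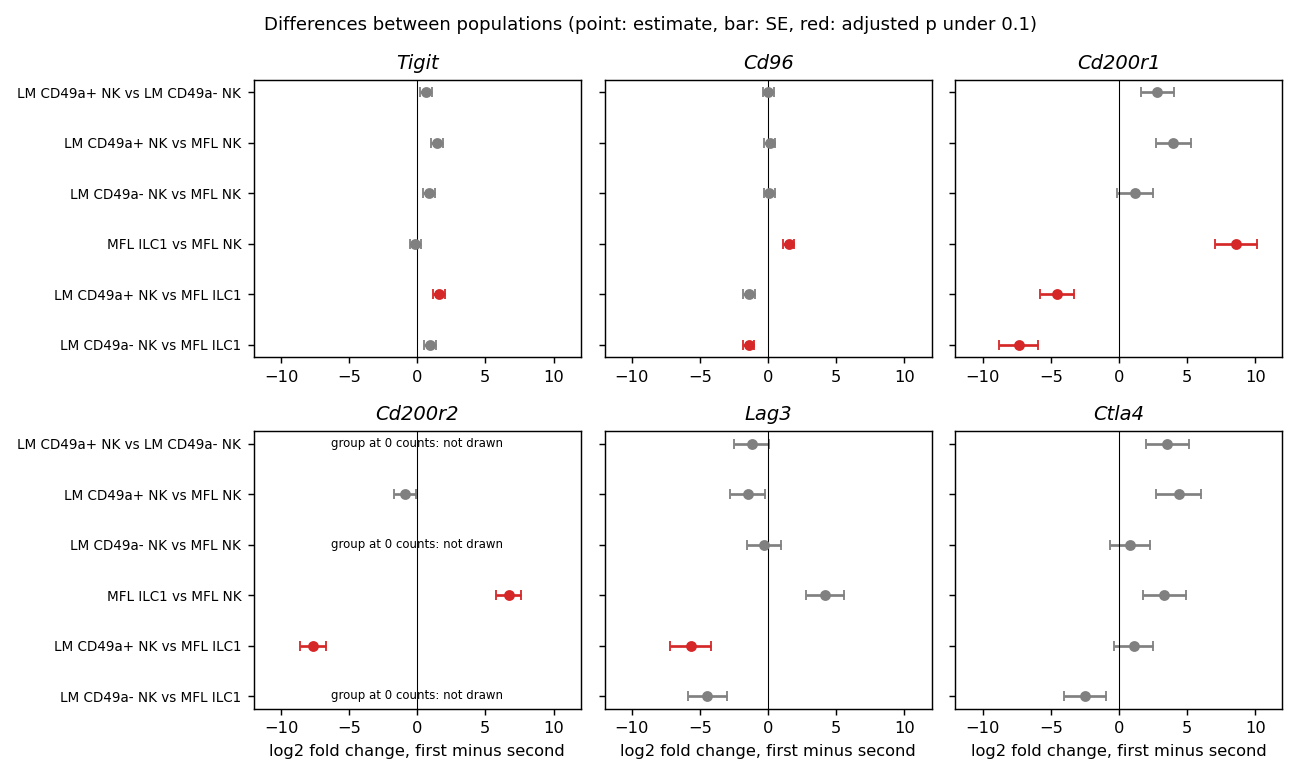
Log2 fold change (horizontal axis, first named population minus second) and its SE for the 6 members that reached a mean of 5 CPM in some population, in the 6 pairwise comparisons. Red points passed an adjusted p of 0.1, and comparisons with a population at 0 counts are left out. Cd200r1 and Cd200r2 have red points in each drawn comparison with MFL ILC1, and the points of Cd96 between NK populations lie near 0.

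On chromosome 16, the stretch from Tigit to Cd96 held 21 other tested genes. In MFL ILC1 against MFL NK cells, where 3.06% of all tested genes were called, 1 of the 21 was called. This was Sidt1, which was lower (log2 fold change -1.37, adjusted p = 0.0519). Of the 4 tested members there, the 3 already named (Cd96, Cd200r1 and Cd200r2) were higher and Tigit, at the edge of the stretch, was not called. These counts describe the genes named and no property of the stretch. Neighbors of Cd200r2 that did not pass also had large estimates: Ccdc80 was at 18.9 to 35.5 CPM in MFL ILC1 and at most 0.408 in MFL NK cells (7.43 on the log2 scale, adjusted p = 0.101), and Gm17928 was at 34.2 to 38.1 against at most 3.18 CPM (5.06, adjusted p = 0.244). Cd200r3 was at 1.95 to 9.57 CPM in MFL ILC1 and Gcsam at 1.23 to 4.84, and both were at 0 in the 9 NK libraries.

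**Figure D5:**
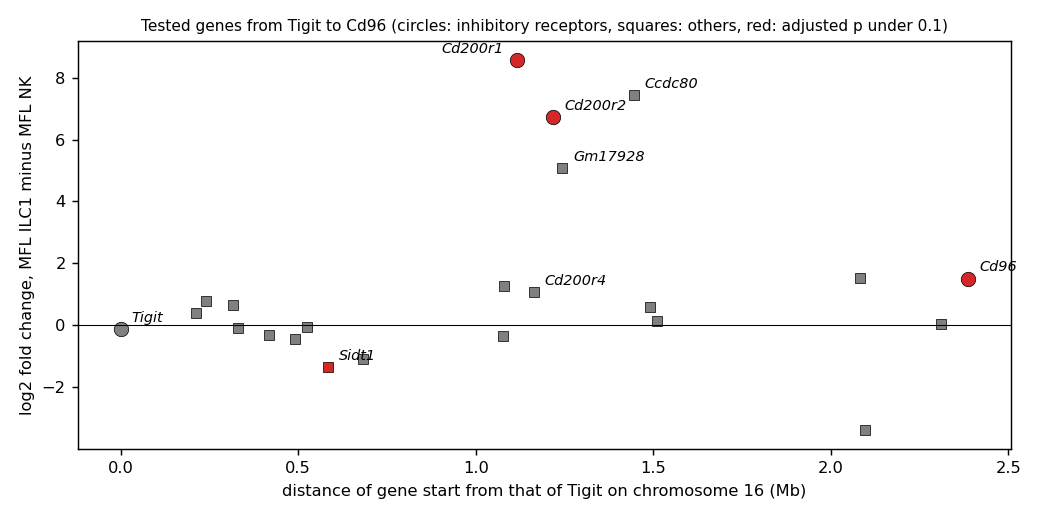
Log2 fold change of MFL ILC1 minus MFL NK cells (vertical axis) for 23 of the 25 tested genes from Tigit to Cd96, against the distance of their starts from that of Tigit in Mb. Circles are inhibitory receptors, squares other genes and red marks an adjusted p under 0.1; 2 genes at 0 in MFL NK cells are not drawn. Cd200r1 (8.57) stands highest, and the neighbors Ccdc80 (7.43) and Gm17928 (5.06), which were not called, lie above and below Cd200r2 (6.72).

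Lag3, whose product binds MHC class II and FGL1, was at 60.2, 87.4 and 76.9 CPM in MFL ILC1. It was at 2.45, 7.15 and 2.64 CPM in MFL NK cells, 0.111, 6.54 and 3.47 in LM CD49a- and 0, 4.30 and 0 in the LM CD49a+ libraries, and the MFL ILC1 libraries stood apart from each of the others. LM CD49a+ NK cells were lower than MFL ILC1 (log2 fold change -5.67 ± 1.51, adjusted p = 0.0597). The size rests on the 1 LM CD49a+ library with reads, since the population was at 0 without it. That call was lost without any one MFL ILC1 library or without LM CD49a+ replicate 1 or 3 (0.151 to 0.19). Against MFL NK cells, MFL ILC1 had a log2 fold change of 4.19 ± 1.40 that did not pass (adjusted p = 0.189), but passed with limma-voom (7.53e-07), with no filter (0.000152), with the compared groups alone (0.000376) and without LM CD49a- replicate 1 (0.0977) or LM CD49a+ replicate 2 (0.0406). LM CD49a- NK cells differed from MFL ILC1 by -4.47 ± 1.42 (adjusted p = 0.117). This difference passed with DESeq2 (0.092), limma-voom (0.0591), no filter (4.08e-05) and the compared groups alone (0.0356), and without any one LM CD49a+ library (0.0241 to 0.0711). Within LM the estimate for CD49a+ against CD49a- NK cells was -1.20 (adjusted p = 0.79, with libraries of both populations at or near 0). The interaction of CD49a and site was -5.40 ± 1.87 (adjusted p = 0.384, and 0.0159 without LM CD49a+ replicate 2).

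Havcr2, the gene of TIM-3, which binds galectin-9 and phosphatidylserine, was low throughout. It had 21, 16 and 8 counts in MFL NK cells, 72, 0 and 0 in LM CD49a-, 0, 46 and 0 in LM CD49a+ NK cells and 11, 4 and 0 in MFL ILC1, or at most 8.02 CPM. Single libraries carried the LM values, and edgeR called no difference in Havcr2 between the lymphocytes.

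Ctla4, whose product competes with CD28 for CD80 and CD86, was at 40.1, 3.05 and 30.1 CPM in LM CD49a+ NK cells and at 19.4, 6.95 and 8.43 in MFL ILC1. In MFL NK cells it was at 0, 2.14 and 1.32 CPM and in LM CD49a- NK cells at 0, 3.32 and 2.84. Both CD49a+ populations had higher means, and in MFL ILC1 each library lay above those of MFL and LM CD49a- NK cells, while LM CD49a+ replicate 2 fell below an LM CD49a- library. LM CD49a+ NK cells exceeded MFL NK cells by an estimated 4.39 ± 1.65 on the log2 scale (adjusted p = 0.401, DESeq2 adjusted p = 0.0441) and LM CD49a- NK cells by 3.56 ± 1.59 (adjusted p = 0.417). For MFL ILC1 the estimate against MFL NK cells was 3.32 ± 1.57 (adjusted p = 0.597, limma-voom adjusted p = 0.0465). The estimate of the interaction was 0.24 ± 2.09 (adjusted p = 1), and it changed sign in 4 of 12 fits that left out a library. Cd28, the activating counterpart, was at 60.4 to 275 CPM in the LM CD49a+ libraries and 47.6 to 77.4 in MFL NK cells.

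Pdcd1, the gene of PD-1, was detected in MFL ILC1, with 22, 63 and 17 counts or 1.87, 4.61 and 1.61 CPM, and had 0 counts in the 6 libraries of MFL and LM CD49a- NK cells. In LM CD49a+ NK cells only replicate 2 had reads, 5 counts. With a floor of 3 counts per library, its mean in MFL ILC1 was at least 11.8-fold that of MFL NK cells, and the difference did not pass (adjusted p = 0.287). Btla, whose product binds HVEM, had 17 counts in all 12 libraries together and at most 8 in one, while Tnfrsf14, the gene of HVEM, was at 16.8 to 18.1 CPM in MFL NK cells and 3.90 to 9.22 in the LM CD49a- libraries.

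Some genes of T cells, though not all, were highest in MFL ILC1, as were several receptors. The summed level of 14 T cell genes was 657 to 1117 CPM in MFL ILC1, 240 to 311 in LM CD49a+, 132 to 244 in LM CD49a- and 128 to 215 in MFL NK cells. Of the 14, 8 were tested and 2, Cd3g and Trbc2, rose in MFL ILC1 relative to MFL NK cells. Between 34.2% and 60.2% of the sum in MFL ILC1 was Cd3g, a CD3 chain. Cd8a was at 6.28, 3.29 and 5.02 CPM and Cd4 at 5.09, 2.78 and 1.99 in MFL ILC1, against 0.236 and 0.22 or less in each NK library, levels of the same order as those of Pdcd1 in MFL ILC1. Cd3d reached 4.83 CPM, Cd8b1 1.78 and Trac 11.6 in MFL ILC1, while Cd3e, Cd5, Cd6, Foxp3 and Themis were at 0.512 CPM or less in each of its libraries. In LM CD49a+ NK cells Cd3d reached 16.4 CPM and Cd3e 2.97, above MFL ILC1, and in LM CD49a- NK cells Trac reached a similar 10.9. The 10 B cell genes summed to 145 to 187 CPM in MFL ILC1, 117 to 124 in LM CD49a+, 15.9 to 101 in LM CD49a- and 30.9 to 82.0 in MFL NK cells. Few genes carried these sums: 2 to 5 were above 3 counts in an MFL ILC1 library and 1 to 2 in an LM CD49a+ library. The part of other cells in Lag3, Ctla4 and Pdcd1 was not tested.

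The genes around the receptors were counted in 4 lists. Of 8 co-receptors and activating partners, 2 rose in MFL ILC1 against MFL NK cells, Cd226 and Cd160 (a receptor of HVEM, log2 fold change 3.14 ± 0.50, adjusted p = 0.00112). Their median log2 fold change was 0.78, against 0.01 over all tested genes. Compared with MFL ILC1, LM CD49a+ NK cells were lower in Cd160, Cd226 and Cd244a (the SLAM receptor 2B4) and higher in Tnfrsf9, which encodes the costimulatory receptor 4-1BB (1.31 ± 0.33, adjusted p = 0.0437). LM CD49a- NK cells were lower in the same 3, with log2 fold changes of -2.78 (Cd160), -2.58 (Cd226) and -1.22 (Cd244a). Of 14 adaptors and phosphatases of inhibitory signaling, 1 was called in either LM population against MFL ILC1, Inpp5d, the gene of the phosphatase SHIP1 (0.70 ± 0.20 in LM CD49a+ NK cells, adjusted p = 0.0814). In the comparisons of LM CD49a+ with LM CD49a- NK cells edgeR called 0 genes of the 4 lists, with 2, 2, 3 and 2 at an unadjusted p under 0.05 among the 8, 8, 14 and 15 tested co-receptors, ligands, signaling genes and transcription factors, where 11.6% of all tested genes were under it.

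Among 15 tested transcription factors linked to checkpoint expression, Tox, which drives the exhausted state of T cells, stood at 151, 160 and 133 CPM in MFL ILC1 and at 26.8, 34.9 and 23.2 in LM CD49a+ NK cells. It rose in MFL ILC1 relative to MFL NK cells (1.70 ± 0.39, adjusted p = 0.0238), and the interaction of CD49a and site passed (-3.13 ± 0.56, adjusted p = 0.0125). Maf also rose in MFL ILC1 (1.73 ± 0.44, adjusted p = 0.0422), and Eomes (-5.04 ± 0.49), Nr4a1 (-2.52 ± 0.69) and Prdm1 (-2.01 ± 0.39) were lower there, so that 2 of the 15 rose and 3 fell. Nr4a3 was the 1 called factor in each LM population against MFL NK cells, at 2.75 ± 0.57 on the log2 scale in LM CD49a+ (adjusted p = 0.04) and 3.26 ± 0.58 in LM CD49a- NK cells (adjusted p = 0.0675). Against MFL ILC1, LM CD49a+ NK cells had 5 factors higher and 1, Tox, lower, and LM CD49a- NK cells had 6 higher and 0 lower. Eomes, Nr4a1 and Nr4a3 had the largest called rises in both, of 5.08, 4.70 and 2.67 on the log2 scale in LM CD49a+ and 5.54, 5.19 and 3.17 in LM CD49a- NK cells.

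The genes whose levels resembled a called member most were sought over the 12 libraries among 9759 genes, as a description with no test, since the libraries fall into 4 populations. Cd101, an inhibitory immunoglobulin superfamily receptor, had a Pearson correlation of 0.967 with Cd200r1, as had Rab11fip1, and means of 23.9 CPM in MFL ILC1 and 3.52 in LM CD49a+ NK cells. P2rx7, the ATP-gated channel, followed Cd200r1 (0.958) and Art2b, an ADP-ribosyltransferase, followed Cd200r2 (0.952), after Cd7 (0.954) and Ccdc80 (0.953). Dll1, a Notch ligand, was closest to Lag3 (0.96), before Slc39a6 (0.93) and Myo7a (0.919). Slc22a15 (0.926), Ddx60 (0.909) and Myo6 (0.908) came closest to Cd96, and Etf1 (0.892) and Litaf (0.877) were close to Tigit.

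Macrophages were measured with another kit and in their own table, so their levels are not set against those of the lymphocytes. Metastasis-associated macrophages (MAMs) of MC38 metastases were sorted as F4/80hi and F4/80int, the latter called F4/80low in the labels, with 3 libraries each. Among 8 members measured there, 6 were lower in F4/80hi than in F4/80int MAMs (Ctla4, Havcr2, Tigit, Cd96, Cd200r1 and Btla) and 0 were higher, in a comparison in which 54.9% of all genes were called. The count was 4 without F4/80hi replicate 2 or F4/80int replicate 1 or 2, and the libraries overlapped for Ctla4 (adjusted p = 0.0431). Havcr2 was at 90.3, 82.1 and 88.4 CPM in F4/80hi and 123, 136 and 126 in F4/80int MAMs (log2 fold change -0.56 ± 0.08, adjusted p = 0.00075). Cd200r1 was at 12.6, 9.21 and 12.1 CPM in F4/80hi and at 39.2, 33.6 and 32.7 in F4/80int MAMs (-1.64 ± 0.14, adjusted p = 4.39e-05).

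Btla was at 2.12, 0.886 and 1.20 CPM in F4/80hi and at 44.7, 50.3 and 23.6 in F4/80int MAMs (log2 fold change -4.86 ± 0.38, adjusted p = 2.99e-05). Genes of dendritic cells moved with it: the sum of 10 of them was 940 to 1659 CPM in F4/80hi and 8396 to 11203 in F4/80int MAMs, and Flt3, a receptor of dendritic cells and their precursors, was at 1.72 to 2.61 and 72.3 to 132 CPM. Ctla4 was at 4.53, 5.02 and 0.995 CPM in F4/80int MAMs, where Foxp3 was at 3.55, 6.04 and 1.25 CPM and Trac at 4.53, 4.95 and 1.21, each lowest in replicate 3, as was Tigit at 1.74, 2.22 and 0.562. The part of dendritic cells and T cells in these values was not tested.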

How the data were processed

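RNA-seq was analysed from 12 lymphocyte and 6 MAM libraries. The authors deposited expected counts, that is estimated counts per gene, made for the lymphocytes with Salmon 1.5.0 on a decoy-aware GENCODE index of GRCm39 after trimming, and imported with tximport, from a stranded total RNA kit. For the MAMs the processing notes name Trim Galore and Salmon 1.10.0. Values were rounded. Genes were filtered with filterByExpr, scaled by TMM and tested with edgeR 4.0.16 (quasi-likelihood test, R 4.3.3) in 1 fit of the 12 lymphocyte libraries and 1 of the MAMs, with Benjamini-Hochberg adjustment over all tested genes and calls at an adjusted p under 0.1. Errors of fold changes are SE and those of levels SD. The tests were checked on simulated counts. Replicates are sorted pools, so p-values measure the spread between these pools. Fold bounds used a floor of 3 counts per library, which covers counting error only, and levels per length used exon unions of GENCODE vM39.

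The members and lists were chosen with earlier results of these data known. Named were all members, the 3 most changed called genes of each list and direction, list genes sharing a ligand or adaptor with a member, and the 3 genes most alike to each called member; a few items under these rules are not reported here. Alternatives were DESeq2 1.42.0, RLE and upper-quartile scaling, no filter, the compared groups alone, a replicate block, limma-voom (limma 3.58.1) and each library left out.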

Additional observations from a re-analysis of the deposited data

How the results depend on the processing

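Of the members' fold changes refitted under the alternatives, 697 kept direction and side of the threshold, 37 passed it newly, 33 no longer passed and 25 changed sign, and the cause was not tested. DESeq2 called 1 member in LM CD49a+ against LM CD49a- NK cells, 2 for LM CD49a+ against MFL NK cells and 1 for LM CD49a- against MFL NK cells, while the fit without a filter called 2, 2 and 1, and 2 for the interaction. Fitting the compared groups alone called 5 members in MFL ILC1 against MFL NK cells. Limma-voom called 6 there, 1 for LM CD49a+ against MFL NK cells, and 5 for LM CD49a- NK cells against MFL ILC1. Leaving out a library gave 0 to 2 calls in LM CD49a+ against MFL NK cells (2 without LM CD49a+ replicate 2), 0 to 1 in LM CD49a- against MFL NK cells (1 without LM CD49a+ replicate 1), 1 to 5 in LM CD49a+ NK cells against MFL ILC1 (1 without any one MFL ILC1 library or LM CD49a+ replicate 3) and 0 to 1 for the interaction (1 without LM CD49a+ replicate 2). Over all genes, LM CD49a+ against LM CD49a- NK cells gave 19 calls, 543 with DESeq2 and 0 with limma-voom. MFL ILC1 against MFL NK cells gave 416, and 2645 with limma-voom.

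The values that changed sign belonged to differences that had not passed. With the replicate block, Cd96 was -0.064 in LM CD49a+ against LM CD49a- NK cells and -0.022 against MFL NK cells, and Tigit 0.043 in MFL ILC1 against MFL NK cells. The replicate block newly passed Lag3 in MFL ILC1 against MFL NK cells (adjusted p = 0.0621) and in LM CD49a- NK cells against MFL ILC1 (0.0279), and Cd96 in LM CD49a+ NK cells against MFL ILC1 (0.0671). The labels do not tie replicate numbers to sortings, so whether the numbers pair the libraries is not known. The 18 pairing correlations of same-numbered libraries were -0.0452 to 0.0981. These are not correlations of the levels themselves, which were 0.714 to 0.954 between libraries. With limma-voom, Cd96 was -0.010 in LM CD49a+ against LM CD49a- NK cells, Ctla4 -0.62 and Cd200r1 -0.11 in LM CD49a- against MFL NK cells, and Tigit 0.45 in MFL ILC1 against MFL NK cells and -0.26 for the interaction. Leaving out a library, Cd96 ranged from -0.40 to 0.45 in LM CD49a+ against LM CD49a- NK cells, from -0.31 to 0.54 in LM CD49a+ against MFL NK cells and from -0.086 to 0.18 in LM CD49a- against MFL NK cells. Cd200r2 ranged from -1.39 to 0.24 in LM CD49a+ against MFL NK cells and from -1.61 to 0.15 for the interaction, Lag3 from -1.16 to 0.40 and Cd200r1 from -2.72 to 2.32 in LM CD49a- against MFL NK cells, Tigit from -0.39 to 0.47 in MFL ILC1 against MFL NK cells and Ctla4 from -0.54 to 0.84 for the interaction. Depth and detection limit Pdcd1, Havcr2 and Btla, which were at 0 in 8, 5 and 9 of 12 libraries.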
